A study of Mus musculus with 6 samples.

Results

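The suppressor of cytokine signalling (SOCS) family comprises Cish and Socs1 to Socs7, and its transcripts were examined in cultured mouse dendritic cells with and without DB2313, a small molecule that the study used as an inhibitor of the transcription factor Spi1 (PU.1). The members were taken by gene symbol, which gave 8 of the 54532 genes in the table, and 8 of 8 were among the 14174 genes that passed the filter on low counts. RNA was sequenced from 3 control and 3 DB2313 libraries of cells kept in medium with serum and antibiotics. The labels gave no strain, genotype, sex, age, dose or time of treatment, and they named dendritic cells whereas macrophages were the subject of the study's own text. Nothing in the labels said that replicates came from separate cultures or animals, so p-values measure the spread between these libraries, which may be technical. In the count table the control columns were named by an abbreviation in common use for dendritic cells grown from bone marrow, and the treated ones by the symbol Spi1. If the latter were not the DB2313 libraries, the directions given below would not hold.

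SOCS proteins are the classical negative feedback of cytokine receptors. A cytokine brings receptor-bound Janus kinases (JAKs) together, the kinases phosphorylate the receptor and a STAT factor, and the STAT factor enters the nucleus and switches on, among other genes, those of the SOCS family. Each SOCS protein holds an SH2 domain that binds phosphorylated tyrosines and a C-terminal SOCS box that recruits elongins and a cullin to mark the bound protein for degradation, and in dendritic cells the family is known for restraining the response to GM-CSF, interferons and interleukins.

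None of the 8 genes was called changed by DB2313. By the quasi-likelihood test of edgeR, with Benjamini-Hochberg adjustment over all genes tested, 0 members were higher and 0 lower at an adjusted p under 0.05, where 10.6% of all genes tested were called, 4.66% higher and 5.94% lower. At an unadjusted p under 0.05 there were 2 members of 8 (Socs2 and Socs5), where 23.3% of all genes tested passed, and limma-voom and DESeq2 also gave 0 calls and 2 members at that level. The same 2 members were the ones whose control and DB2313 values did not overlap, a property that 27.4% of all genes tested shared. On the log2 scale the fold change, DB2313 against control, was positive for 4 members and negative for 4, with a median of -0.04 against 8.2e-04 over all genes tested. The median of its absolute value was 0.12, and 0.16 over all genes tested. The 95% intervals of the 8 members lay between -0.42 and 0.53 on the log2 scale. A p that misses the threshold does not show that a gene was unaffected, and these intervals give the sizes of change that the data still allow.

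Short stretches of DNA near the start sites are given for 3 members because the family is known for being switched on by STAT factors. They were chosen after the values were seen. RefSeq windows (GRCm38.p6) of 300 bases around the start site matched 4 of the 8 members: Cish, Socs1, Socs3 and Socs4. These windows were searched on both strands for the STAT motif TTCNNNGAA, the PU.1 motif GAGGAAGT and the interferon response motif GAAANNGAA. Positions are counted from 1 at the start site, with negative numbers upstream, and capitals mark the matched letters. The Cish window held TTCNNNGAA at positions 1 and 12, and the Socs3 window held it at position -154. The Socs1 window held GAAANNGAA at -83 and -77, where the matches overlap each other. None of the 4 windows held GAGGAAGT, and Socs4 held none of the 3 motifs. Over 32851 RefSeq windows of the same length, 8.3% held TTCNNNGAA, 3.2% GAGGAAGT and 8.56% GAAANNGAA. A match is a description of the letters and not a measured binding site. The first stretch is chr9:107296654-107296683 (+), around the RefSeq start site of Cish and inside the span that GENCODE M21 gives for the gene. The next is chr16:10785537-10785786 (-), upstream of Socs1 and outside its annotated transcripts. The last is chr11:117969501-117969530 (-), upstream of the RefSeq start of Socs3 and inside the span annotated for that gene.
Cish: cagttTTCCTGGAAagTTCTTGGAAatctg
Socs1: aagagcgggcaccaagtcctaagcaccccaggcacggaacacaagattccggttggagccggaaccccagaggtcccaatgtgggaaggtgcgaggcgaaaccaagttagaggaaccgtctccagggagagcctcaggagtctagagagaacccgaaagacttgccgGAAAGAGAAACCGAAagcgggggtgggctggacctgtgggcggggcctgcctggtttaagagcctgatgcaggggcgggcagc
Socs3: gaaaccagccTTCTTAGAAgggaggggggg

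The 6 libraries held between 16146743 and 19764677 counts each, and the biological coefficient of variation over all genes was 9.66%. Replicates differed by more than sampling noise, for which chi-square per degree of freedom is 1. It lay between 4.77 and 5.28 for pairs of control libraries and between 7.43 and 17.7 for pairs of DB2313 libraries, with replicates 1 and 3 of the latter the farthest apart. Of the markers of dendritic cells 9 of 10 were over 1 CPM (counts scaled to library size, TMM), as were 10 of 10 macrophage, 10 of 10 neutrophil, 9 of 10 mast cell and basophil and 10 of 10 T and NK cell markers. Summed macrophage markers did not overlap between the groups (1702 to 1807 CPM in control, 1316 to 1579 CPM with DB2313), nor did those of B cells (33.4 to 39.1 against 40.3 to 46.5 CPM, with 2 of 6 over 1 CPM), and their part in the results was not tested. The macrophage markers did not all move alike. On the log2 scale Fcgr1 was called higher (0.26, adjusted p = 0.0477) and Csf1r lower (-0.29, adjusted p = 0.0324). Adgre1 (0.12) and Cd68 (-0.09) were not called, and the remaining ones had negative values. Of the dendritic cell markers, Itgax was called lower (-0.58, adjusted p = 0.00032), though their sums overlapped between the groups. Neutrophil markers Elane (0.69, adjusted p = 0.00059), Ly6g (0.56, adjusted p = 0.0047) and Retnlg (0.51, adjusted p = 0.0242) were called higher. So were the mast cell and basophil markers Fcer1a (0.34, adjusted p = 0.0244) and Hdc (0.28, adjusted p = 0.0293). The other markers of both lists were not called, and both sums overlapped between the groups. In such bulk samples, fewer cells of a type and less RNA per cell cannot be told apart.

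Cish (ENSMUSG00000032578, chr9:107296026-107302784), a STAT5-induced protein that binds phosphorylated receptor chains, was read at 67.3, 71.6 and 68.3 CPM in control replicates 1 to 3. The DB2313 replicates gave 78.1, 67.4 and 63.8 CPM. The groups overlapped, with the highest and the lowest of the 6 values both in DB2313 libraries, and the means were 69.1 ± 2.22 and 69.8 ± 7.47 CPM (SD, n = 3 each). For Cish the log2 fold change was 0.01 ± 0.09 (SE; 95% interval -0.17 to 0.20; adjusted p = 0.949), and it was -0.07 without DB2313 replicate 1 and below 0 (-0.0033) without control replicate 1. A change of Cish beyond the fold range of 0.887 to 1.15 lay outside this interval. Cish overlaps 2 antisense genes, which held at most 5 counts in any library.

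Socs2 (ENSMUSG00000020027, chr10:95385362-95417180), also STAT5-induced and best known for limiting growth hormone signalling, had one of the 2 smallest p-values of the family. It was read at 217, 209 and 198 CPM in the controls (3537, 3327 and 3154 counts) and at 189, 182 and 173 CPM with DB2313 (3114, 3636 and 2874 counts). Each DB2313 library lay below each control library on the CPM scale. The log2 fold change was -0.20 ± 0.07 (SE; 95% interval -0.35 to -0.05), a fitted level 12.8% lower, with an adjusted p of 0.0904. Socs2 was below the threshold (-0.23, adjusted p = 0.0464) when DB2313 replicate 1 was left out, and it was -0.13 (adjusted p = 0.302) under the offset for gene length and -0.16 (adjusted p = 0.304) without control replicate 1. Stretches of Socs2 transcripts are shared with 33 other genes. The longest, 599 bp at 99.5% identity, is with the pseudogene Gm9847, which held 3 to 11 counts per library.

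The count of Cish relative to Socs2, which needs no scaling between libraries, was 0.310, 0.343 and 0.345 in control replicates 1 to 3. It was 0.413, 0.369 and 0.370 with DB2313. The ratio was higher in 3 of 3 DB2313 libraries than in any control, a difference of 0.21 on the log2 scale. The exact two-sided permutation test gave p = 0.1, the smallest that 3 against 3 libraries can give, and 0.4 after adjustment over the 4 pairs compared, so the design could not reach 0.05.

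**Figure D1:**
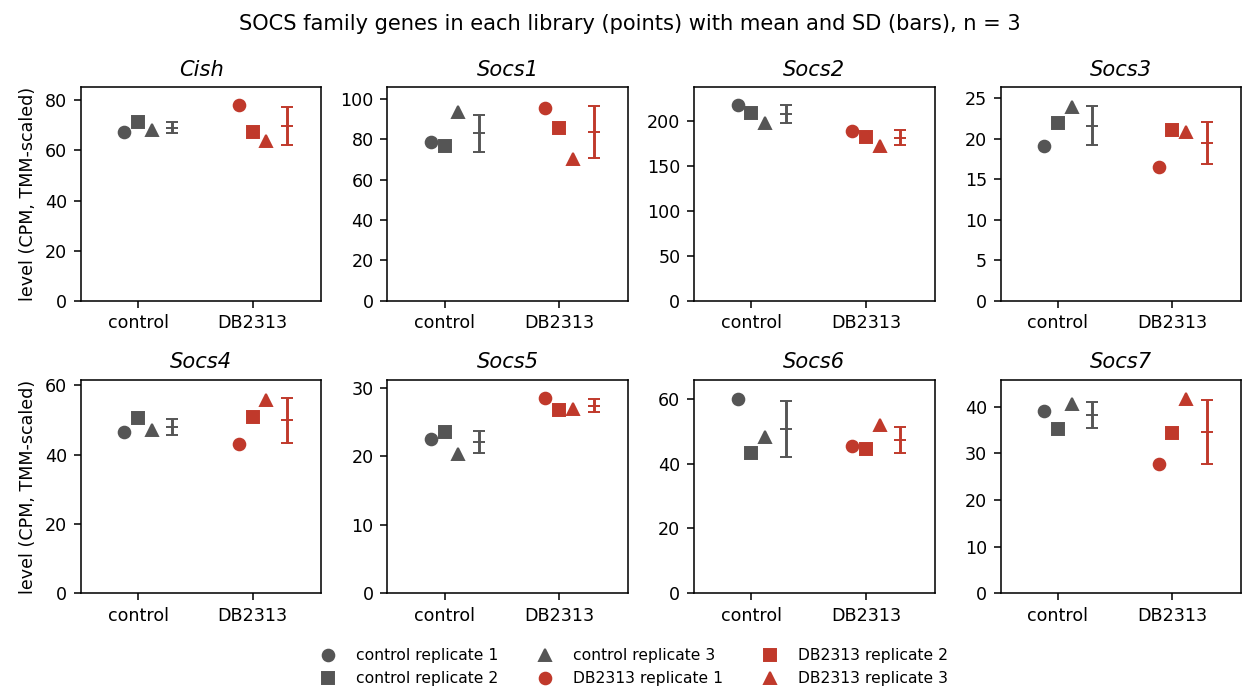
Level of each SOCS family gene (vertical axes, CPM with TMM scaling, starting at 0) in the 3 control (grey) and 3 DB2313 (red) libraries, with the marker shape giving the replicate and bars giving mean and SD. The groups are apart for Socs2 (198 to 217 against 173 to 189 CPM) and Socs5 (20.3 to 23.5 against 26.8 to 28.4 CPM), and they overlap for the other 6 genes.

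Socs1 (ENSMUSG00000038037, chr16:10782240-10785536) blocks JAK catalytic activity through a kinase inhibitory region and is the main brake on interferon gamma signalling. Control replicates 1 to 3 gave 78.5, 76.9 and 93.4 CPM, and DB2313 replicates gave 95.6, 85.6 and 70.1 CPM. The highest and the lowest values were again both in DB2313 libraries. The means of 82.9 ± 9.11 and 83.7 ± 12.9 CPM (SD, n = 3 each) differed by less than the spread within either group, with a log2 fold change of 0.01 ± 0.11 (SE; 95% interval -0.22 to 0.25; adjusted p = 0.959). The fitted value ranged from -0.09 without DB2313 replicate 1 to 0.13 without DB2313 replicate 3, so its sign depended on single libraries. No stretch of Socs1 transcripts is shared with another gene at 95% identity over 100 bp.

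Socs3 (ENSMUSG00000053113, chr11:117966079-117970047) carries the other kinase inhibitory region of the family and docks on gp130 and the G-CSF receptor. It was read at 19.1, 21.9 and 23.9 CPM in the controls and at 16.5, 21.1 and 20.8 CPM with DB2313, with 271 to 421 counts per library. DB2313 replicate 1 was the lowest of the 6 libraries, and the other two DB2313 libraries lay inside the control range. Socs3 had a log2 fold change of -0.15 ± 0.13 (SE; 95% interval -0.42 to 0.12; adjusted p = 0.53). It ranged from -0.23 without control replicate 1 to -0.04 without DB2313 replicate 1, and was -0.21 without DB2313 replicate 2 and -0.07 without control replicate 3. The count of Socs1 relative to Socs3 was 4.10, 3.51 and 3.91 in control and 5.81, 4.05 and 3.37 with DB2313, so the groups overlapped (exact two-sided permutation p = 0.8, also 0.8 over the 4 pairs).

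Socs4 and Socs5 have long N-terminal regions and are linked to turnover of the EGF receptor, and Socs5 also to the IL-4 receptor. Socs5 (ENSMUSG00000037104, chr17:87107679-87137583) had the smallest p-value of the family. It was read at 22.4, 23.5 and 20.3 CPM in control replicates 1 to 3, from 365, 375 and 324 counts, and at 28.4, 26.8 and 26.9 CPM with DB2313, from 468, 534 and 448 counts. Each DB2313 library was above each control library. The log2 fold change was 0.31 ± 0.10 (SE; 95% interval 0.09 to 0.53), a fitted level 23.8% higher, with an adjusted p of 0.0681. The offset for gene length took Socs5 past the threshold (0.32, adjusted p = 0.0402), and the value lay between 0.25 and 0.36 when single libraries were left out, with 0 calls among those 6 fits.

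Socs4 (ENSMUSG00000048379, chr14:47276931-47296102) was read at 46.4, 50.6 and 47.0 CPM in control and at 43.0, 50.7 and 55.8 CPM with DB2313. The DB2313 values spanned the control range on both sides. Its log2 fold change was 0.06 ± 0.10 (SE; 95% interval -0.16 to 0.27; adjusted p = 0.799), and it was -0.03 without DB2313 replicate 3. The count of Socs4 relative to Socs5 was 2.07, 2.15 and 2.31 in control and 1.51, 1.89 and 2.07 with DB2313. The groups met at their edges, and the exact two-sided permutation test gave p = 0.2, or 0.4 over the 4 pairs.

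Socs6 and Socs7 are the remaining pair. Socs6 (ENSMUSG00000056153, chr18:88665224-88927481), which binds the receptor kinases KIT and FLT3, was read at 60.1, 43.3 and 48.4 CPM in control and at 45.6, 44.6 and 52.0 CPM with DB2313. Control replicate 1 was the highest of the 6 libraries, and the DB2313 values lay within the control range. Its log2 fold change was -0.09 ± 0.11 (SE; 95% interval -0.33 to 0.14; adjusted p = 0.679), and it was 0.05 without control replicate 1. Socs6 shares 1006 bp at 96.7% identity with the pseudogene Gm9449, which held 0 to 3 counts.

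Socs7 (ENSMUSG00000038485, chr11:97362551-97398542), which binds the adaptor NCK and insulin receptor substrates, was read at 39.1, 35.3 and 40.6 CPM in control and at 27.8, 34.4 and 41.7 CPM with DB2313. It had the widest range among DB2313 libraries of the 8 genes, 0.58 on the log2 scale, with replicate 1 lowest and replicate 3 highest of the 6. Socs7 had a log2 fold change of -0.15 ± 0.12 (SE; 95% interval -0.41 to 0.12; adjusted p = 0.536), and it moved between -0.01 without DB2313 replicate 1 and -0.30 without DB2313 replicate 3 (adjusted p = 0.0649). The count of Socs6 relative to Socs7 was 1.54, 1.23 and 1.19 in control and 1.64, 1.30 and 1.25 with DB2313 (exact two-sided permutation p = 0.5, or 0.667 over the 4 pairs).

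**Figure D2:**
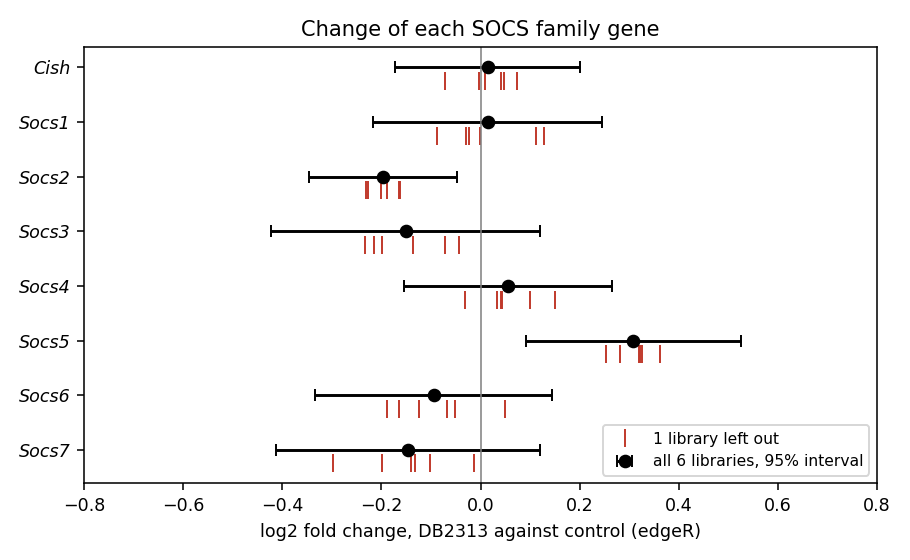
Log2 fold change of each SOCS family gene, DB2313 against control, fitted with edgeR on 6 libraries (black points, bars giving the 95% interval) and with 1 library left out at a time (red ticks). The intervals of Socs2 (-0.35 to -0.05) and Socs5 (0.09 to 0.53) lie on one side of 0, and the ticks of Cish, Socs1, Socs4 and Socs6 fall on both sides.

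To compare members with each other, levels were expressed per gene length as RPKM, a CPM divided by the length of the gene in kilobases. In the controls Socs1 had the highest level, 28.5 ± 3.13 RPKM, followed by Socs2 at 21.8 ± 1.03 and Cish at 10.8 ± 0.347 RPKM (SD, n = 3). Each of these 3 was separate from its next neighbour, in that the ranges over the libraries did not overlap. Below them came Socs3 (7.48 ± 0.830), Socs4 (6.98 ± 0.327), Socs6 (6.15 ± 1.05), Socs7 (5.28 ± 0.382) and Socs5 (5.03 ± 0.371 RPKM), and no neighbours in that lower stretch differed beyond their spread. With DB2313 the order began with the same 3 genes, at 28.8 ± 4.42, 19.0 ± 0.864 and 10.9 ± 1.16 RPKM, with the same 3 separations. Socs5 stood at 6.23 ± 0.207 RPKM there, above Socs6 (5.76 ± 0.487) and Socs7 (4.77 ± 0.957), and its range overlapped those of its neighbours. On the TPM scale the order and the separations were the same. Summed over the 8 members the level was 92.0 ± 2.46 RPKM in control and 89.4 ± 3.54 RPKM with DB2313 (SD, n = 3 each).

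**Figure D3:**
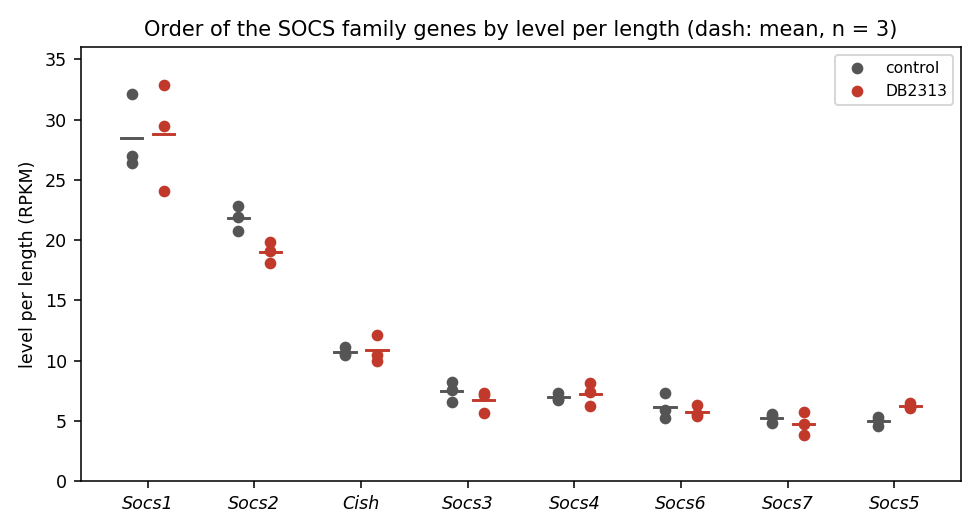
Level per length (vertical axis, RPKM, starting at 0) of the 8 SOCS family genes in control (grey) and DB2313 (red) libraries, with genes in the order of the control means and dashes giving the means of 3 libraries. Socs1 (28.5 and 28.8 RPKM), Socs2 (21.8 and 19.0) and Cish (10.8 and 10.9) stand apart from the other 5 genes, whose means lie between 4.77 and 7.48 RPKM.

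The DB2313 libraries differed among themselves in several members. Against the control mean, Cish stood at 0.18, -0.04 and -0.11 on the log2 scale in DB2313 replicates 1, 2 and 3. Socs1 stood at 0.20, 0.05 and -0.24 in the same libraries. Both were thus highest in replicate 1 and lowest in replicate 3, as was Socs2 at -0.14, -0.19 and -0.27. Socs7 at -0.46, -0.16 and 0.12 and Socs4 at -0.16, 0.08 and 0.22 had the reverse order. Marker sums of other cell types also differed between these libraries. Neutrophil markers summed to 5895, 4902 and 4487 CPM in DB2313 replicates 1, 2 and 3 against 4421 to 4973 CPM in control. T and NK cell markers summed to 409, 328 and 267 CPM against 282 to 337 CPM. Mast cell and basophil markers summed to 3079, 2944 and 2570 CPM against 2521 to 2721 CPM, and dendritic cell markers to 11512, 10658 and 9791 CPM against 11404 to 11637 CPM. These 4 sums were highest in replicate 1 and lowest in replicate 3, as Cish, Socs1 and Socs2 were. The small B cell sum had this order too (46.5, 44.6 and 40.3 CPM). Macrophage markers ran the other way, at 1316, 1380 and 1579 CPM in DB2313 replicates 1, 2 and 3, the order of Socs4 and Socs7. The part of these cells in the values of the members was not tested, and an order of 3 libraries is easily shared.

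**Figure D4:**
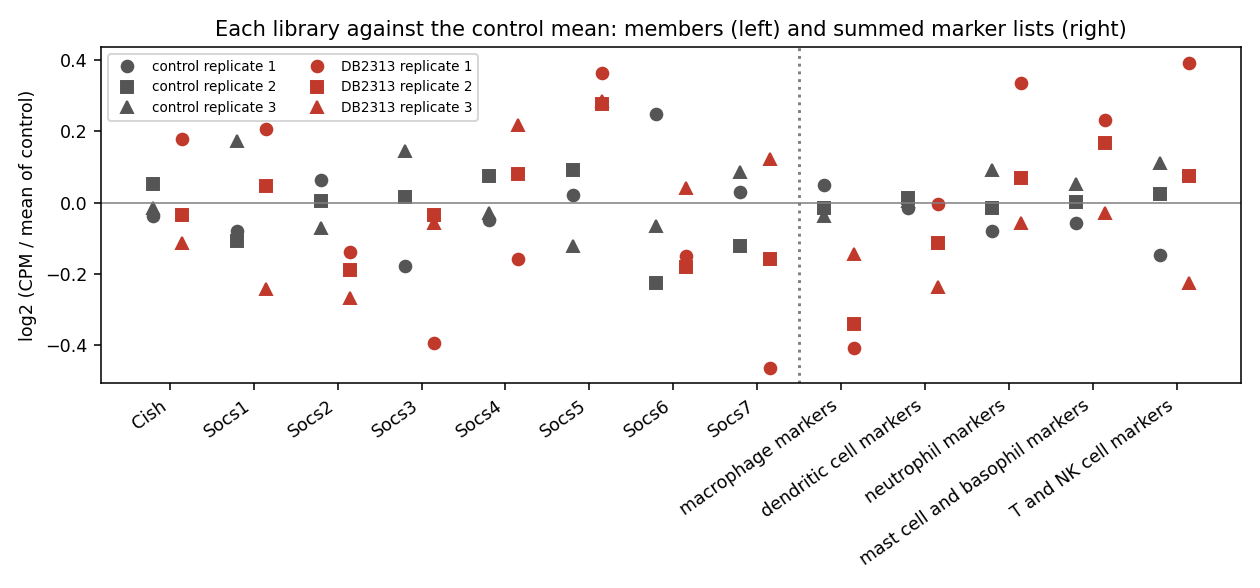
Log2 of the level in each library over the control mean (vertical axis) for the 8 SOCS family genes, left of the dotted line, and for summed marker lists of 5 cell types, right of it, with grey for control, red for DB2313 and the shape for the replicate. Among the DB2313 libraries, replicate 1 is the highest for Cish, Socs1, Socs2, Socs5 and each marker sum except that of macrophages. It is the lowest for Socs3, Socs4, Socs7 and the macrophage sum.

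The genes whose pattern over the 6 libraries was most like that of Socs5, the member with the smallest p-value, were sought among 11156 protein-coding genes by Pearson's r of log2 CPM. They were H2-T22 (r = 0.988), an MHC class I-like gene, Iqce (r = 0.987) and Rnaset2b (r = 0.985), a ribonuclease. These correlations describe 6 libraries that share depth and group structure, and they were picked as the highest of all that were compared. H2-T22 and Rnaset2b have close relatives in the genome, so their counts may be split between copies.

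The rest of the pathway was described with lists of genes by role, 194 genes in all, of which 150 were tested. In these lists 11 genes were higher and 27 lower with DB2313, that is 25.3% called against 10.6% of all genes tested, with a median log2 fold change of -0.07. The lists were drawn up with earlier results of these data known. Each of the 38 called genes kept its sign under 13 of 13 alternative settings, and 18 were called in each setting. The number lower was 17 with the replicate number as a block, between 15 and 16 without one of the control replicates and 13 without DB2313 replicate 2, and the number higher was 7 without control replicate 1 and 17 without DB2313 replicate 3.

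SOCS proteins act through the SOCS box, and none of its 6 ligase partners passed the test (median log2 fold change 0.14). Rbx1, a RING protein of cullin ligases, gave 0.20 (adjusted p = 0.206), and Ube2f, the enzyme that passes NEDD8 to Cul5, gave 0.18 (adjusted p = 0.194), with control and DB2313 values of Ube2f that did not overlap. Elob and Eloc, the elongins that the SOCS box binds, gave 0.13 (adjusted p = 0.511) and 0.15 (adjusted p = 0.331), Cul5, the cullin scaffold, gave -0.12 (adjusted p = 0.525), and Rnf7, its RING partner, gave 0.06 (adjusted p = 0.736; edgeR). Of 26 other SOCS box proteins 16 were tested, with 1 higher and 3 lower. Spsb1, a SPRY domain adaptor of the same ligase type, fell from 52.3 ± 3.97 to 32.3 ± 2.07 CPM (log2 fold change -0.70, adjusted p = 0.00019). Asb4 fell from 5.36 ± 0.458 to 1.48 ± 0.674 CPM (-1.86, adjusted p = 0.0011). Asb11, at 14, 11 and 10 counts in control and 2, 2 and 4 with DB2313, also fell (adjusted p = 0.0316), and Rab40c rose by 0.30 (adjusted p = 0.0474). Asb11 and Rab40c each lost the call under 8 of 13 settings, among them the replicate block and the omission of any control library or of DB2313 replicate 1 or 2, with adjusted p up to 0.182 and 0.174.

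Upstream of the family stand ligands, receptors, kinases and STAT factors. Of 36 cytokine ligands 12 were tested. Il12b, the shared chain of IL-12 and IL-23, fell from 31.1 ± 1.77 to 15.4 ± 1.95 CPM (-1.02, adjusted p = 4.9e-05), and Il7 rose from 2.16 ± 0.157 to 4.78 ± 0.862 CPM (1.14, adjusted p = 0.00884). Of 42 receptor genes 34 were tested, with 2 higher and 8 lower and a median of -0.13. Il2ra, the IL-2 receptor alpha chain, fell from 61.6 ± 3.91 to 35.8 ± 1.52 CPM (-0.78, adjusted p = 3.8e-05). Ifnlr1, a chain of the interferon lambda receptor, fell by 0.80 on the log2 scale, from 14.0 ± 0.894 to 8.03 ± 1.09 CPM. Csf2rb2, a receptor chain of the IL-3 family, fell by 0.43, though 3134 bp of it match Csf2rb at 95.1% identity and reads may be split between them. Csf3r, the G-CSF receptor that Socs3 binds, fell by 0.41 (adjusted p = 0.00863, and up to 0.0734 without control replicate 1 or DB2313 replicate 2). Of Csf3r, 1518 bp match AC105061.2 at 96.8% identity and shorter stretches match many other genes, so its reads may be split too. Ifngr1, the ligand-binding chain of the interferon gamma receptor, rose from 206 ± 11.6 to 268 ± 7.61 CPM (0.38, adjusted p = 0.00214), and Il13ra1 rose by 0.46 (adjusted p = 0.00268).

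Among the 4 kinases 1 was lower and 0 higher. Jak2, the kinase of the GM-CSF and interferon gamma receptors, fell from 751 ± 52.2 to 628 ± 22.7 CPM (-0.26, adjusted p = 0.0272). Jak1 gave -0.22 (adjusted p = 0.0758), Tyk2 -0.15 (adjusted p = 0.226) and Jak3 -0.11 (adjusted p = 0.446). Of the STAT factors, Stat2 gave 0.29 (adjusted p = 0.0808) and Stat4 gave -0.29 (adjusted p = 0.0774). Stat5a gave 0.13 (adjusted p = 0.306), Stat5b 0.06 (adjusted p = 0.679), Stat3 -0.10 (adjusted p = 0.429) and Stat6 -0.08 (adjusted p = 0.515), all from edgeR. Control and DB2313 values did not overlap for Jak1, Jak2, Stat2, Stat5a and Stat6, a property that 27.4% of all genes tested shared. The call of Jak2 was lost with the replicate block and without any single control library or DB2313 replicate 2, with an adjusted p up to 0.194.

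Of 16 other inhibitors of cytokine signalling 2 were higher and 1 lower. Dusp2, a nuclear phosphatase, rose from 19.3 ± 2.25 to 27.2 ± 3.55 CPM (0.49, adjusted p = 0.0176), and Pdlim2, a nuclear ubiquitin ligase that targets STAT proteins, rose by 0.42 (adjusted p = 0.0134). Ptpn1, a phosphatase of JAK2 and TYK2, fell by 0.27 (adjusted p = 0.0182). Of 9 other substrates of SOCS proteins 8 were tested, and Nck1, an adaptor that Socs7 binds, fell by 0.30 (adjusted p = 0.0308). Each of these 4 lost its call when single libraries were left out. These were control replicate 1 or 2 for Dusp2 (adjusted p up to 0.104), control replicate 1 or 3 or DB2313 replicate 2 for Pdlim2 (up to 0.0839), and any control library or DB2313 replicate 2 for Ptpn1 (up to 0.104) and Nck1 (up to 0.143). Ptpn1 and Nck1 also lost the call with the replicate block, and Nck1 with scaling by library totals and with no filter.

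Cish and Socs2 are textbook STAT5 targets, and of 9 other STAT5-responsive genes 1 was higher and 1 lower. Gfi1, a transcriptional repressor, rose from 9.64 ± 0.320 to 15.3 ± 1.93 CPM (0.66, adjusted p = 0.00628), and Pim1, a serine kinase, fell from 253 ± 7.62 to 191 ± 8.42 CPM (-0.40, adjusted p = 0.00127). Socs1 is a textbook interferon target, and of 15 other interferon-responsive genes 14 were tested, with 2 higher and 2 lower. Irgm1 rose from 100 ± 3.36 to 154 ± 12.6 CPM (0.62, adjusted p = 0.00012) and Iigp1 by 0.62 (adjusted p = 0.00901, and 0.0599 without control replicate 3). Gbp5 fell from 108 ± 2.38 to 82.2 ± 6.20 CPM (-0.39, adjusted p = 0.00408) and Gbp2 by 0.32 on the log2 scale (adjusted p = 0.00781, and up to 0.0732 without control replicate 2 or DB2313 replicate 2). All 4 encode interferon-induced GTPases.

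Socs3 is a textbook STAT3 target, and of 12 other STAT3-responsive genes 5 were lower and 0 higher (median -0.21). Bcl3, a nuclear partner of NF-kB, fell from 66.1 ± 1.76 to 39.7 ± 3.23 CPM (-0.74, adjusted p = 6.8e-05). Fos fell by 0.63 (adjusted p = 0.00796, and 0.0529 without control replicate 1), and Junb, a partner of Fos in AP-1, fell by 0.30 (adjusted p = 0.0278, and up to 0.147 without control replicate 1, control replicate 3 or DB2313 replicate 2). Mcl1, an anti-apoptotic member of the BCL-2 family, fell by 0.27 (adjusted p = 0.0110, and up to 0.0722 with the replicate block or without any control library or DB2313 replicate 2). Reads of Bcl3 and Junb cannot be told apart from those of overlapping genes if the libraries were not stranded. The same limit applies to other genes named here that overlap a gene, among them Pim1, Spsb1, Il7, Gfi1 and Rab40c.

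Of 12 STAT6-responsive genes, which IL-4 and IL-13 induce, 1 was higher and 4 were lower (median -0.17). Arg1, an arginase, fell from 59.1 ± 5.01 to 17.5 ± 3.33 CPM (-1.76, adjusted p = 7.1e-07). Mrc1, the mannose receptor, which is also among the macrophage markers above, fell from 130 ± 26.9 to 79.4 ± 14.2 CPM (-0.71, adjusted p = 0.00325), and Retnla, a secreted protein, fell by 0.67 (adjusted p = 0.00053). Alox15, a lipoxygenase, fell by 0.48 (adjusted p = 0.0115, and up to 0.0803 without control replicates 2 or 3 or DB2313 replicate 2). Mgl2, a galactose-binding lectin, rose from 113 ± 6.09 to 215 ± 27.9 CPM (0.92, adjusted p = 1.4e-05), and it shares 727 bp with Clec10a.

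**Figure D5:**
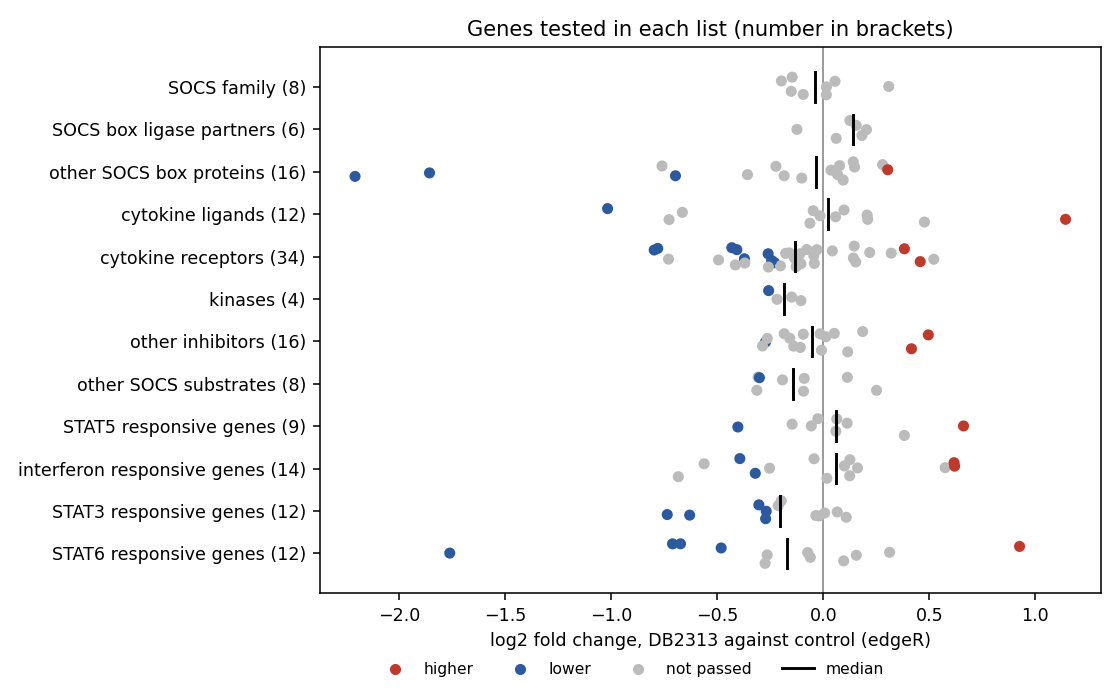
Log2 fold change (horizontal axis, DB2313 against control, edgeR) of each tested gene in the SOCS family and in 11 lists of related genes (the list of STAT factors is not drawn), with the number tested in brackets, genes called higher in red, called lower in blue and not passed in grey, and a black bar for the median. The 8 SOCS family genes lie between -0.20 and 0.31 and none is coloured, and the STAT3 and STAT6 lists hold 5 and 4 genes called lower.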

How the data were processed

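Per the submitters' processing notes, CASAVA 1.8, HISAT2 2.0.5 and featureCounts 1.5.0-p3 were used, whereas the methods of the study name LifeScope. The authors deposited raw counts per gene, as whole numbers without normalisation, and a gene length in base pairs, from which RPKM and TPM were computed here. The genome build and the strandedness were not given in the sources used here. Of 54409 gene identifiers shared with GENCODE M21 (GRCm38), 98.33% had the same start and end, and coordinates are those of the table.

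Genes were tested with the quasi-likelihood test of edgeR 4.0.16 (R 4.3.3; TMM scaling, filterByExpr, group as the only term, Benjamini-Hochberg adjustment over 14174 genes, threshold 0.05), after the scripts were tested on simulated data. This test gave every adjusted p printed for a gene, except where another tool is named. Alternatives were DESeq2 size factors, library totals, no filter, limma-voom (limma 3.58.1), DESeq2 1.42.0 (the tool of the study), a lowess offset for gene length (span 0.3), the replicate number as a block and the omission of each library. Shared stretches were searched among GENCODE M21 transcripts at 95% identity over 100 bp or more. The labels gave no batch or date.

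The rule for naming genes took the 8 members and, from each list, up to 4 called genes in each direction with the largest absolute log2 fold change. A gene that the rule chose is not reported here. Members and lists were chosen with earlier results of these data known. The rule chose the promoters of Socs2 and Socs5, which the RefSeq table used did not hold.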

Additional observations from a re-analysis of the deposited data

How the results depend on the processing

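Of the 13 alternatives, those that rescaled the libraries, dropped the filter or changed the tool kept 0 members called in either direction. The offset for gene length called 1 member higher (Socs5, 0.32) and turned Socs1 to -0.012. When each library was left out in turn, 0 members were called higher and 0 to 1 lower (Socs2, -0.23 without DB2313 replicate 1). The log2 fold change then ranged from -0.073 to 0.074 for Cish, -0.087 to 0.13 for Socs1, -0.23 to -0.16 for Socs2, -0.23 to -0.045 for Socs3, -0.032 to 0.15 for Socs4, 0.25 to 0.36 for Socs5, -0.19 to 0.048 for Socs6 and -0.30 to -0.013 for Socs7, and Cish, Socs1, Socs4 and Socs6 changed sign. Among the other pathway genes 7 to 17 were higher and 13 to 38 lower, and among all genes 328 to 1097 were higher and 411 to 1311 lower, the highest of these counts without DB2313 replicate 3. The number of separate neighbours in the order of levels ranged from 3 to 5 in either group. The cause of these shifts was not tested, beyond the smaller number of libraries. With a replicate block 0 members were called, 17 other pathway genes were lower, and 502 genes were higher and 629 lower over all genes tested. Equal replicate numbers marked no shared deviation. Those of same-numbered libraries from their group means had correlations of 0.0035, -0.024 and -0.12, and 0 of 6 libraries correlated best with its own number. With 3 libraries per group, the 95% intervals of the members give the sizes of change that the data still allow. Those of Socs2 and Socs5 lay on one side of 0, and the other members had intervals that included 0.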
